A study of Mus musculus with 4 samples.

Results

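Matrix proteases and their inhibitors were followed in B16-F10 cells, a melanoma line of the mouse grown in culture, after anti-TIM3 antibody. The 9 genes are Mmp2, Mmp9, Mmp14, Timp1, Timp2, Timp3, Plau, Plat and Plaur, taken with every non-control probe that carried the gene's name in the files or the current symbol of its RefSeq accession. They had 17 probes among 41174 on the array, which carried 27670 gene names in all. Anti-TIM3 samples came from cells given a goat polyclonal agonist antibody against mouse TIM3, a receptor best known as an immune checkpoint on lymphocytes. IgG samples came from cells of the same passage given unspecific goat IgG. Treatment lasted 2 h. IgG was used at 15 µg/ml on every array, and the antibody at 15 µg/ml in replicates 1, 2 and 4. For the anti-TIM3 sample of replicate 3 no dose is given. Each of the 4 arrays held 1 pair of samples, from passages 14, 16, 18 and 19 for replicates 1 to 4. The replicates are thus passages of a single line, and p-values measure the spread between them. The anti-TIM3 sample always carried Cy5 and the IgG sample always Cy3, so an effect of the antibody and a dye effect of a probe cannot be told apart.

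The extracellular matrix is broken down at the cell surface and around it by metalloproteinases, which need zinc and are made as inactive precursors, and by plasmin, a serine protease. Plasmin is released from plasminogen by the activators uPA and tPA, which Plau and Plat encode, and Plaur encodes the receptor that holds uPA on the cell. The TIMPs are secreted proteins that bind and block active metalloproteinases. In melanoma this system is known for its part in invasion.

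The label of the cells was borne out by their markers. All 7 melanocyte lineage genes looked at (Mlana, Pmel, Tyr, Tyrp1, Dct, Mitf and Sox10) were detected, that is, well above background, in Cy5 and Cy3 on every array. Of 5 macrophage markers 2 were bright enough to be tested (Cd68 in both channels and Csf1r in Cy5), and Ptprc, Adgre1 and Itgam were not. Of 5 fibroblast markers 4 were tested, with Col1a1 detected in both channels, and of 4 endothelial markers only Tek, in Cy5. Between 25703 and 28400 probes were well above background in Cy5, and between 21151 and 22086 in Cy3.

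Of the 17 probes, 13 passed the filter on dim signals, which asked that 1 of the channels be well above background on 3 or more arrays. They covered 8 of the 9 genes, and both Mmp9 probes fell below it. In a limma fit of the log2 ratio of anti-TIM3 over IgG across 26545 probes, with Benjamini-Hochberg adjustment and a threshold of 0.05, 3 of the 13 were higher (Timp2, Plat, Plau), 1 was lower (Mmp14) and 9 did not pass. Among all tested probes 27.8% passed, 14.2% higher and 13.6% lower, so the share among the protease and inhibitor probes was near that background. Plau entered the test only through the anti-TIM3 samples, where it is higher, so the filter fixed its call in part. The median log2 ratio of the 13 was 0.04, against 0.006 over all tested probes. Timp2 had the largest absolute ratio of the 13 and Mmp14 the next. The ratio had the same sign on all 4 arrays for 9 of the 13 probes, against 47.8% of all tested probes. In the signals as processed by the authors' software, Timp2 and Plat were higher and Mmp14 lower, where 19.8% of all probes passed (10.8% higher and 8.97% lower). The same 3 passed once the remaining trend of the ratio on intensity was removed, where 26.5% of all probes did (12.8% higher and 13.6% lower).

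**Figure D1:**
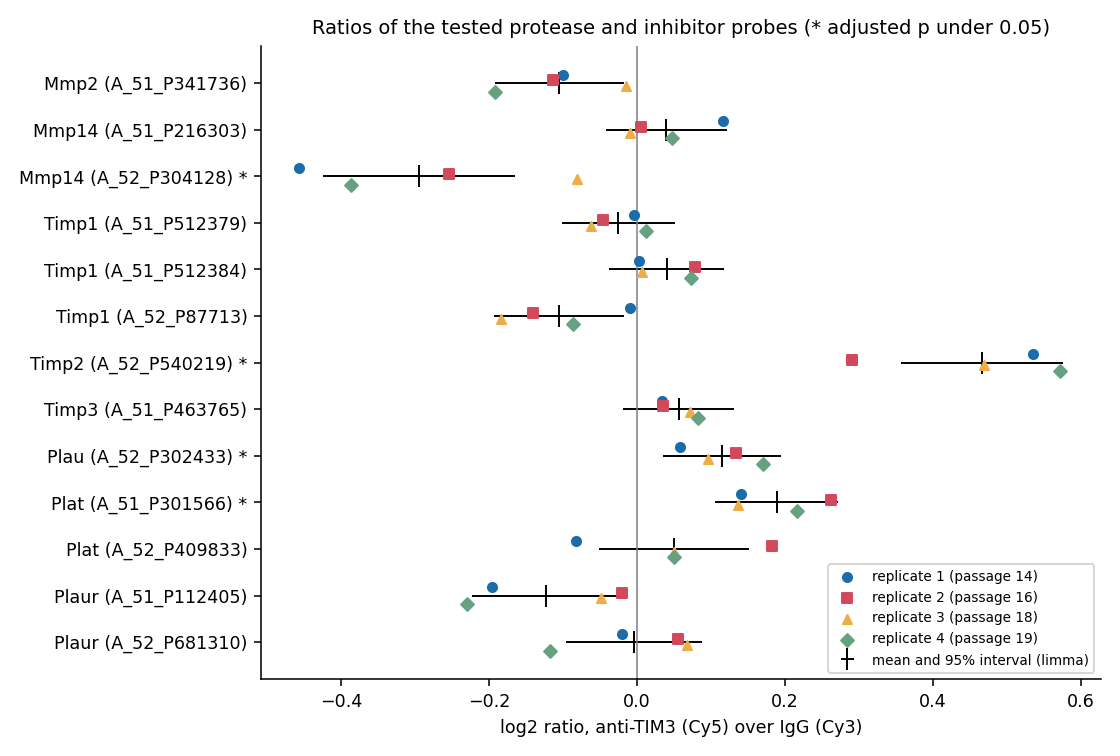
Log2 ratio of anti-TIM3 over IgG for each tested probe of the protease and inhibitor genes, with 1 point per array and the mean with its 95% confidence interval. Timp2 stands highest, at 0.47, and Mmp14 probe A_52_P304128 lowest, at -0.29, while Mmp14 probe A_51_P216303 lies near 0.

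Mmp14 encodes MT1-MMP, a membrane-anchored metalloproteinase that cleaves collagen and activates the Mmp2 precursor. Its 2 probes gave different answers, so their sequences are shown, the first whole and the second by its first 30 bases.
Mmp14 probe A_52_P304128, chr14:49307013-49307072 (mm7): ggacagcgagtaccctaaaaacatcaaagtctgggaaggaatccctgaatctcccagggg
Mmp14 probe A_51_P216303, start of chr14:49308207-49308266 (mm7): aaaggaatcttaagagtgtacatttggagg
Whether a probe lies in coding or untranslated sequence is not given in the files. At A_52_P304128 the normalised log2 levels were 9.65, 9.75, 9.63 and 9.51 in anti-TIM3 samples of replicates 1 to 4, against 10.11, 10.01, 9.71 and 9.90 in IgG samples. The anti-TIM3 sample was the lower of its pair on every array, with the smallest gap on replicate 3, although the ranges of the groups overlapped. The log2 ratios of -0.46, -0.25, -0.08 and -0.39 averaged -0.29 ± 0.17 (SD, n = 4), with a 95% confidence interval of -0.42 to -0.16 and an adjusted p of 0.00716 in limma. At A_51_P216303 the levels were 14.64, 14.67, 14.44 and 14.71 in anti-TIM3 samples, against 14.53, 14.66, 14.45 and 14.66 in IgG samples. The gap within a pair was 0.12 on replicate 1 and at most 0.05 on the other arrays. Its mean log2 ratio was 0.04 ± 0.06 (SD, n = 4), with an interval of -0.04 to 0.12 and an adjusted p of 0.429 in limma. The intervals of the 2 Mmp14 probes did not overlap, so the fall was seen at 1 probe of the gene and not at the other. The cause of the disagreement was not tested.

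Mmp2 encodes gelatinase A, which degrades denatured collagen and basement membrane collagen. At its only probe (A_51_P341736, chr8:91446191-91446250, mm7) the levels were 8.18, 8.03, 8.17 and 8.10 in anti-TIM3 samples, against 8.28, 8.15, 8.19 and 8.29 in IgG samples. The ratio was below 0 on all 4 arrays, but on replicate 3 by only 0.014. The mean of -0.11 ± 0.07 (SD, n = 4) had an interval of -0.19 to -0.02 and did not pass (limma adjusted p = 0.0701). The level of Mmp2 varied little between arrays, over 0.14 log2 units in either group (0.23 in anti-TIM3 and 0.26 in IgG samples in the authors' processed signals).

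Mmp9, encoding gelatinase B, was near the level of the array's blanks. Neither of its probes (chr2:164695457-164695516 and chr2:164695774-164695833, mm7) was well above background on any array in either channel. The second was printed on 10 spots per array, and 1 of these was well above background in the anti-TIM3 channel of replicate 3. Averaged over its spots, the raw signal of the second probe was 65.3, 60.5, 59.3 and 54.4 in anti-TIM3 samples, where the median of 153 negative-control spots was 53.7, 50.7, 48.5 and 46.5. In IgG samples it was 108, 93.2, 87.2 and 80.8, where the controls had 99.8, 88.1, 81.6 and 75.4. This Mmp9 signal sat slightly above the control median on all arrays in both channels. It passed the 95th percentile of single control spots (74.9, 56.1, 54.4 and 59.2) in anti-TIM3 samples of replicates 2 and 3 only, and in no IgG sample, where that percentile was 117, 99.1, 91.8 and 83.5. The first Mmp9 probe passed the same percentile on replicates 2 and 3 in both groups, with 61.0 and 58.4 in anti-TIM3 samples and 100.4 and 94.6 in IgG samples. No ratio is given for a gene that was not well above background in either group.

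Timp2 encodes an inhibitor that blocks metalloproteinases and, bound to MT1-MMP, also helps bring the Mmp2 precursor to its activator. Its only probe carried the largest rise among these genes, and its first 30 bases are shown for that reason.
Timp2 probe A_52_P540219, start of chr11:118410877-118410936 (mm7): ccgtgagcgttcttgtgccgtgttgatgcc
The levels were 13.75, 14.02, 14.06 and 13.88 in anti-TIM3 samples, against 13.22, 13.73, 13.59 and 13.31 in IgG samples. Every anti-TIM3 sample lay above every IgG sample, by a narrow margin between the lowest of the one and the highest of the other. The log2 ratios were 0.54, 0.29, 0.47 and 0.57. They averaged 0.47 ± 0.12 (SD, n = 4), or 1.38-fold, with an interval of 0.36 to 0.58 and an adjusted p of 0.000652 in limma. Timp2 passed with each array left out in turn, and also in the authors' processed signals, where the mean log2 ratio was 0.46 (limma adjusted p = 0.0179). It is a bright probe, and without the loess step its mean ratio was 0.93 with a limma adjusted p of 0.749. That step is meant to remove the trend of the ratio with brightness within an array. After loess, 11.6% of the 1408 probes with a mean log2 intensity from 13 to 14 were called higher and 25.1% lower. The median log2 ratio of these 1408 was -0.04. Brighter probes were not centred on 0, with medians of 0.10 from 15 to 16 and 0.34 over 16. A part of brightness or dye in the Timp2 ratio was not tested. Over the 4 arrays, Lars had the pattern of ratios nearest to that of Timp2, then Elovl7 and Kif20b, by Euclidean distance of the 4 log2 ratios (0.04, 0.08 and 0.10). Only 2 tested probes lay within a distance of 0.1 of Timp2, against 199 to 1619 for the other 7 members measured in this way. The distance is not scaled, so this count largely restates the size of the Timp2 ratio.

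**Figure D2:**
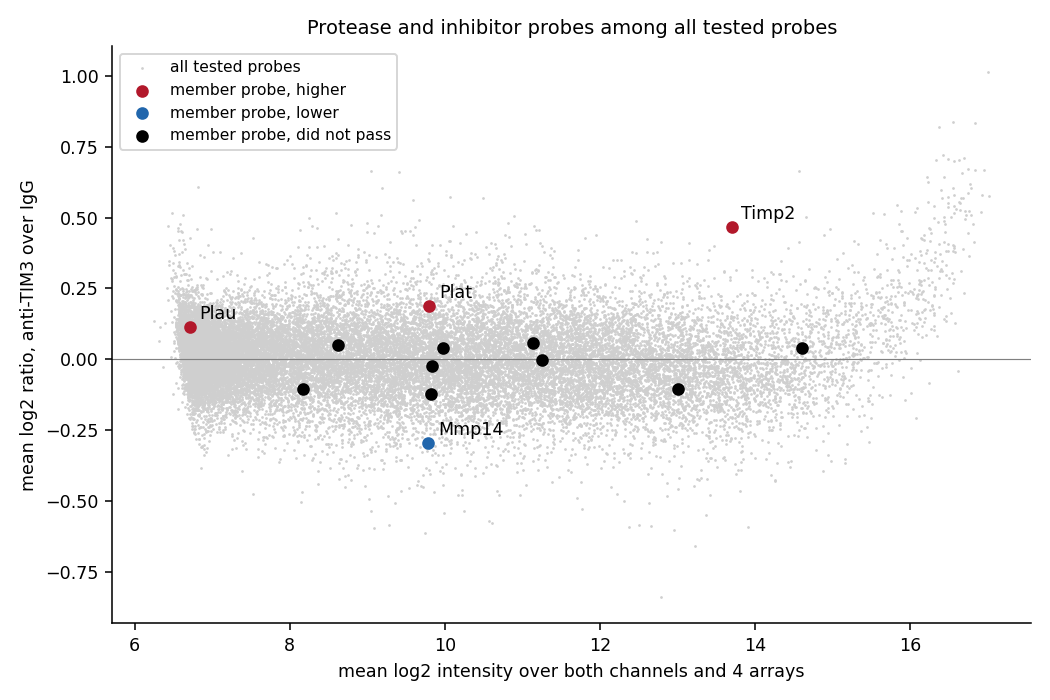
Mean log2 ratio of anti-TIM3 over IgG against mean log2 intensity for all tested probes (grey) and the protease and inhibitor probes (coloured). Timp2, at 0.47, lies above the bulk of probes of its brightness.

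The other inhibitors did not pass. Timp1, which blocks most soluble metalloproteinases, had 3 probes on chromosome X (chrX:19305989-19306238, chrX:19305929-19305988 and chrX:19307699-19307758, mm7) with mean log2 ratios of -0.02 ± 0.04, 0.04 ± 0.04 and -0.11 ± 0.07 (SD, n = 4 each). Their limma adjusted p-values were 0.606, 0.400 and 0.0715. The third of these probes (A_52_P87713) was below 0 on all 4 arrays, with an interval of -0.19 to -0.02. Only 2 of 17 other settings called it lower. These were array weights, at -0.13 with a limma adjusted p of 0.0240, and leaving out replicate 1, at -0.14 with 0.0436. Without replicate 2, 3 or 4 the limma adjusted p was 0.211, 0.259 and 0.138. In the authors' processed signals its ratio was -0.09 (limma adjusted p = 0.197). Timp3, whose product stays bound to the matrix and also blocks sheddases of the ADAM family, was measured by 1 probe (chr10:85907162-85907221, mm7). It had a mean ratio of 0.06 ± 0.03 (SD, n = 4). Its ratio was above 0 on all 4 arrays, by 0.03 to 0.08, and its limma adjusted p was 0.227.

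Plat encodes tissue plasminogen activator. At probe A_51_P301566 (chr8:21567937-21567997, mm7) the levels were 9.51, 9.84, 10.09 and 10.13 in anti-TIM3 samples, against 9.37, 9.57, 9.95 and 9.91 in IgG samples. The gap was above 0 on all 4 arrays, from 0.14 to 0.26, while the level itself moved more from array to array than between the groups. The log2 ratios of 0.14, 0.26, 0.14 and 0.22 averaged 0.19 ± 0.06 (SD, n = 4), or 1.14-fold, with an interval of 0.11 to 0.27 and an adjusted p of 0.0071 in limma. A second Plat probe (A_52_P409833, chr8:21567376-21567435, mm7) had ratios of -0.08, 0.18, 0.05 and 0.05. Its mean was 0.05 ± 0.11 (SD, n = 4) with an interval of -0.05 to 0.15, which overlaps that of the first, and an adjusted p of 0.421. The remaining probe, A_52_P405772, was not well above background on any array in either channel.

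Plau encodes urokinase, the activator that works on the cell surface. Probe A_52_P302433 (chr14:18499577-18499636, mm7) was well above background in anti-TIM3 samples of replicates 2, 3 and 4 and in no IgG sample. On every array more probes were well above background in Cy5 than in Cy3, so detection in Cy5 alone is no sign of a difference. The Plau levels were 6.52, 6.74, 6.92 and 6.82 in anti-TIM3 samples, against 6.46, 6.61, 6.83 and 6.65 in IgG samples. All of these were close to the floor of the scale. The mean log2 ratio of 0.11 ± 0.05 (SD, n = 4) had an adjusted p of 0.0399 in limma. Since the probe was tested only because of its signal in anti-TIM3 samples, this p is no independent sign of a difference, and with detection in both groups on every array required Plau was not tested. The adjusted p was under the threshold in 5 of 16 other settings, and without replicate 2, 3 or 4 the adjusted p was 0.131, 0.0932 and 0.144. Set against the lowest signal well above background, the Plau level in anti-TIM3 samples was 1.03-fold. That value takes the level averaged over all anti-TIM3 samples over a mean across the arrays. On each array the higher of the dim probe and the lowest signal well above background entered that mean. Since replicate 1 is included, where Plau was not well above background, the value is no lower bound of a rise. It is also open to dye bias. The other Plau probe was not well above background anywhere.

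Plaur encodes the urokinase receptor. At A_51_P112405 (chr7:21262233-21262410, mm7) the ratios were -0.20, -0.02, -0.05 and -0.23, averaging -0.12 ± 0.10 (SD, n = 4). The limma adjusted p was 0.0649. At A_52_P681310 (chr7:21263487-21263546, mm7) the mean was -0.004 ± 0.09 with an interval of -0.10 to 0.09 and an adjusted p of 0.956. Neither probe passed, and on replicates 1 and 4 both gave their lowest ratios.

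The arrays fell into pairs in the ratios of these genes, as they did over all tested probes. The mean absolute difference of the log2 ratio over the 13 probes was 0.0718 between replicates 1 and 4 and 0.0747 between replicates 2 and 3, and from 0.0998 to 0.118 in the other 4 pairings. Timp2, Mmp14 (A_52_P304128) and Plaur (A_51_P112405) each had their 2 largest absolute ratios on replicates 1 and 4. The same pairs had the highest correlation of ratios across all tested probes, with Pearson's r of 0.707 and 0.746. These coefficients are across probes, which are not independent replicates.

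Levels of several members differed far more between passages than between treatments. Timp1 was lowest in passage 14 and highest in passage 18, whichever agent the cells had received. At probe A_52_P87713 the log2 levels were 12.13, 12.70, 13.66 and 13.28 in anti-TIM3 samples of passages 14, 16, 18 and 19, and 12.14, 12.84, 13.84 and 13.37 in the IgG samples. The difference between the lowest and the highest passage was 1.53 log2 units (2.88-fold) in anti-TIM3 samples and 1.70 (3.25-fold) in IgG samples. The other Timp1 probes gave 1.79 and 1.81 in anti-TIM3 samples and 1.85 and 1.80 in IgG samples, in the same order of passages. Among the 20554 probes detected in Cy5 and Cy3 on every array, the median range was 0.21 in anti-TIM3 and 0.24 in IgG samples. Ranges as large as those of the 3 Timp1 probes were found in 0.18% to 0.25% of them in anti-TIM3 samples and in 0.13% to 0.20% in IgG samples.

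Timp3 followed the same order of passages as Timp1. Its levels were 10.61, 10.97, 11.74 and 11.32 in anti-TIM3 samples, and 10.57, 10.94, 11.67 and 11.23 in IgG samples, a range of 2.20-fold in anti-TIM3 and 2.14-fold in IgG samples. Plaur did so at both probes, with ranges of 0.86 and 0.91 in anti-TIM3 samples and 0.71 and 0.83 in IgG samples. For Plat the ranges were 0.62 and 0.57 in anti-TIM3 samples and 0.58 and 0.43 in IgG samples, again with passage 14 lowest. At the second Plat probe they were 0.85 in anti-TIM3 and 0.78 in IgG samples in the authors' processed signals. Timp2 varied by 0.31 in anti-TIM3 and 0.51 in IgG samples, and Mmp14 at A_51_P216303 by 0.27 in anti-TIM3 and 0.21 in IgG samples. In both channels the level was highest on replicate 3 and lowest on replicate 1 for 7 of the 12 probes that could be compared (58.3%), against 9.22% of all 20554. These 7 were all probes of Timp1, Timp3 and Plaur and the second Plat probe, so repeat probes of a gene are counted separately. The order of passages at the Timp1, Timp3 and Plaur probes was the same in the authors' processed signals. This pattern was noticed after the values had been seen, and no test was made of it. Each passage was measured on 1 array, so passage and array cannot be told apart.

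**Figure D3:**
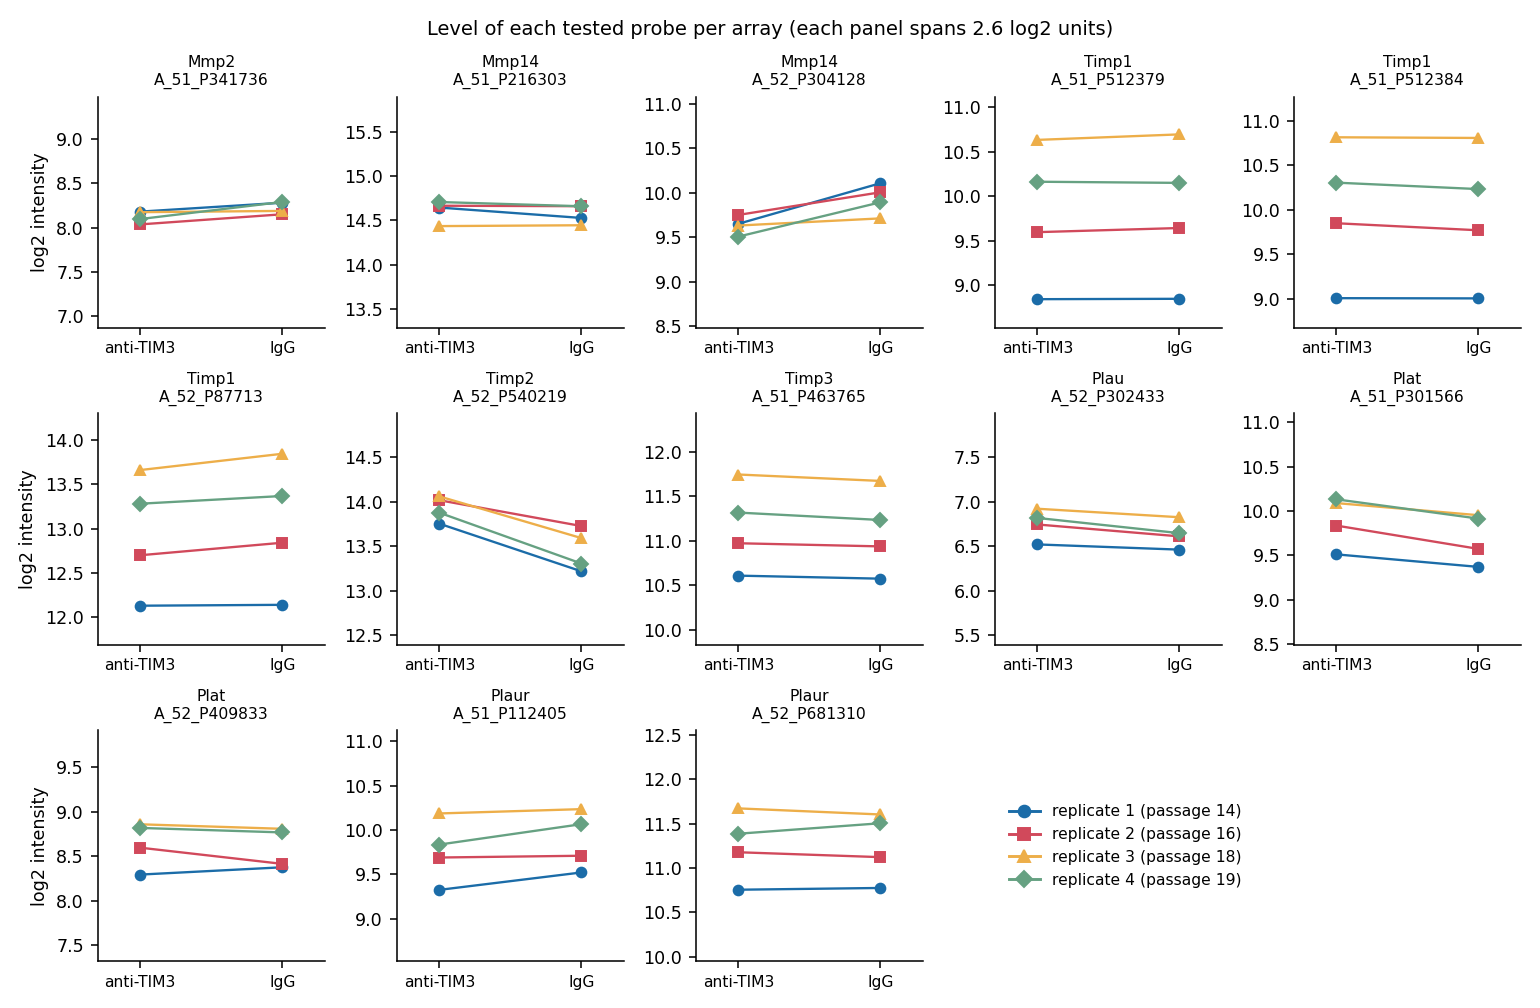
Normalised log2 level of each tested probe, anti-TIM3 samples to the left of IgG samples, with 1 line per replicate. Timp1, Timp3 and Plaur span 0.71 to 1.85 log2 units between the lowest and the highest passage, while Mmp2 and Mmp14 probe A_51_P216303 stay within 0.27.

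Because Timp1, Timp3 and Plaur had the same order of levels over the passages, the 250 bases before their start sites are given from RefSeq (GRCm38.p6), on the gene's strand. Capitals mark GC boxes (GGGCGG) and AP-1 elements (TGANTCA), searched on both strands, so that a GC box of the other strand reads CCGCCC. The table used held 5 of the 9 genes.
Timp1, chrX:20869916-20870165: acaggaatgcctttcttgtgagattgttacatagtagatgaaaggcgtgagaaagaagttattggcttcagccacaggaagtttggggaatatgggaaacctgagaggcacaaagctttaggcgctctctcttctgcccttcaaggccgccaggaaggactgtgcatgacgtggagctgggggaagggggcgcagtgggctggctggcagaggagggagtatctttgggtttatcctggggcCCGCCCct
Timp3, chr10:86300162-86300411: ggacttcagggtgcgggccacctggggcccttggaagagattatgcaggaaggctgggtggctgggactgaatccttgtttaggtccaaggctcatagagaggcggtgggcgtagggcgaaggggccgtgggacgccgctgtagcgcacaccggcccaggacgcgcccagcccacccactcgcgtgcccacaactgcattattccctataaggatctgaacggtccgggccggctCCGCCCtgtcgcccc
Plaur, chr7:24462233-24462482: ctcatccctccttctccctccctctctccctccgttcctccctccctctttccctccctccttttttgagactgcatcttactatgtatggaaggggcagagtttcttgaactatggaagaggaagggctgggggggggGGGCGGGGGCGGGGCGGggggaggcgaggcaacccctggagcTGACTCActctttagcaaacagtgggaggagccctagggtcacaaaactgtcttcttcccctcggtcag
All 5 genes in the table held a GC box, Mmp14 and Timp2 included, whose levels did not follow this order of passages. It is found in 32.7% of 32851 promoters of this length. Plaur held 3, of which 2 share a base. Plaur alone of the 5 held the AP-1 letters, which 6.75% of promoters hold. None held TATAAA, which is in 12.4%. A match is a description of the letters in this window.

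The calls of Timp2, Mmp14 (A_52_P304128) and Plat (A_51_P301566) held in 14 of 17 other settings each. All 3 missed the threshold with median centring in place of loess, with the channels fitted as separate samples, and in a test against a minimum change of 1.2-fold. Mmp14 had a mean log2 ratio of -0.07 after median centring, and Plat one of 0.43.

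**Figure D4:**
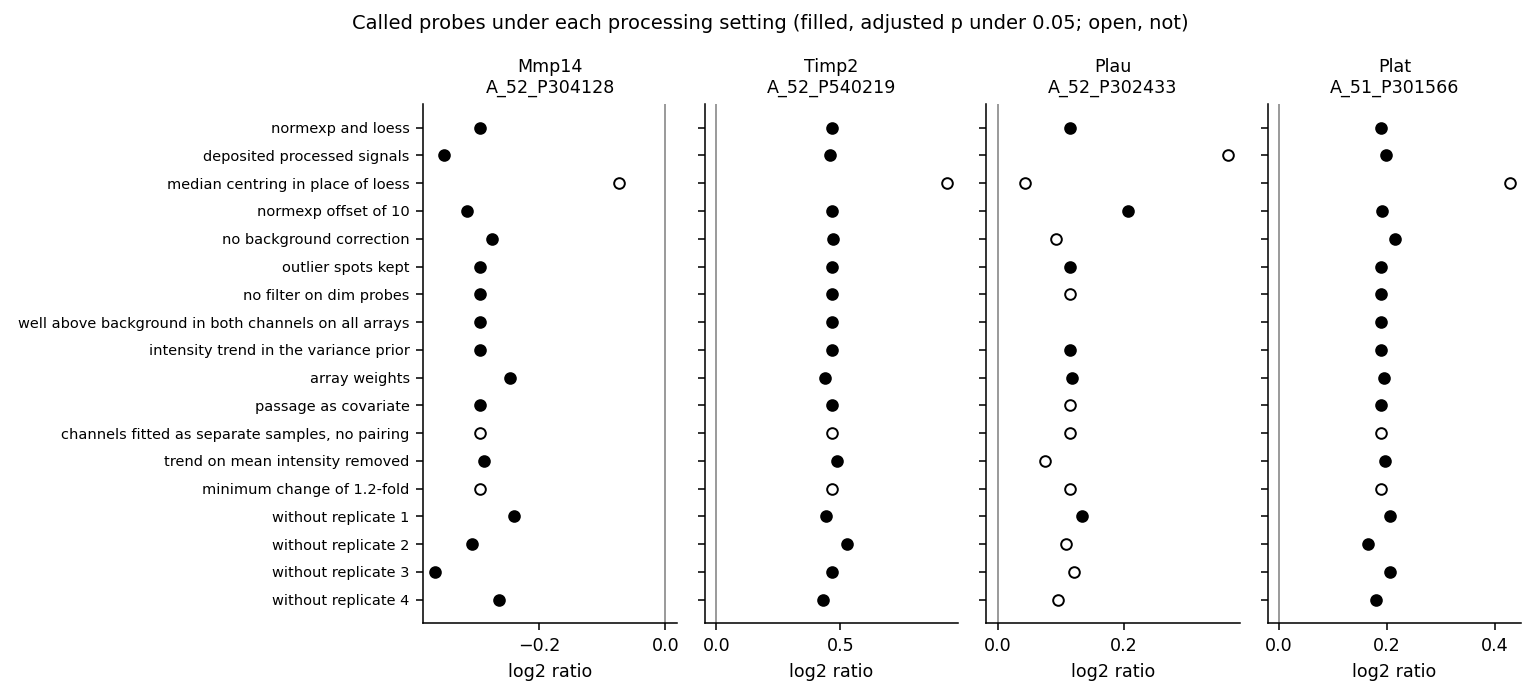
Mean log2 ratio of anti-TIM3 over IgG of the 4 probes that passed, under each processing setting tried (filled points passed, open points did not). Timp2 stays between 0.43 and 0.53 in all settings drawn other than median centring, where it is 0.93.

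Other genes of the matrix-degrading systems were taken from a list of 51, of which 49 were on the array and 33 were tested, each by its brightest tested probe. Of these 33, 4 were higher, 4 lower and 25 did not pass, with a median log2 ratio of 0.002, where 28.0% of all 14470 named genes tested in this way passed. Among 9 tested metalloproteinases 2 were higher and 0 lower, and among 5 regulators of metalloproteinases 1 was higher and 2 lower. Among 7 genes of the plasminogen system 0 were higher and 2 lower, and among 12 other surface and matrix proteases 1 was higher and 0 lower. A second probe was called lower for 4 genes whose brightest probe did not pass: Adamts1 (-0.19), Anxa2 (-0.19), Adam15 (-0.17) and Adam17 (-0.11). The remaining further probes, of Mmp17 (-0.04), Adam12 (-0.01) and Adamts9 (0.13 and 0.12), did not pass. Among all tested probes 13.6% were called lower. Bsg, encoding basigin, a surface glycoprotein also known as an inducer of metalloproteinases, had log2 ratios of -0.45, -0.47, -0.49 and -0.49. The 4 arrays were almost identical, and the mean of -0.48 ± 0.02 (SD, n = 4) passed at an adjusted p of 0.000144 in limma. Mmp11, encoding stromelysin-3, had ratios of 0.17, 0.23, 0.19 and 0.32, with a mean of 0.23 ± 0.06 and a limma adjusted p of 0.0036. Both also passed in the authors' processed signals, with ratios of -0.47 for Bsg and 0.32 for Mmp11.

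Plgrkt, encoding a plasminogen receptor, was lower by a mean log2 ratio of -0.16 ± 0.08 (limma adjusted p = 0.0203). Reck, encoding a membrane inhibitor of metalloproteinases, was higher by 0.17 ± 0.13 (adjusted p = 0.0314), with replicate 1 at -0.02. Serpine2 (-0.19), Mmp10 (0.14), Adamts9 (0.12) and Timp4 (-0.11) also passed, but Serpine2 and Mmp10 were not well above background in any IgG sample and Adamts9 in 1 only. Mmp10 and Adamts9 were thus tested through the samples in which they are higher, and their calls are fixed in part by the filter. In the authors' processed signals 2 genes of the list were higher (Mmp7 and Mmp11) and 2 lower (Mmp15 and Bsg). There 19.8% of all tested probes passed, a share counted by probe and not by gene. Mmp7 was well above background in no IgG sample, so it too was tested through the samples in which it is higher. After normexp and loess its ratio was 0.04 (limma adjusted p = 0.344). Mmp15, a dim probe, was well above background in 1 IgG sample only. Its ratio after normexp and loess was -0.08 (limma adjusted p = 0.106). None of Plgrkt, Reck, Serpine2, Mmp10, Adamts9 and Timp4 passed in the authors' processed signals. The calls of Reck, Mmp10, Adamts9 and Timp4 were each lost in 3 of the 4 fits that left out an array, and that of Plgrkt in 2.

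**Figure D5:**
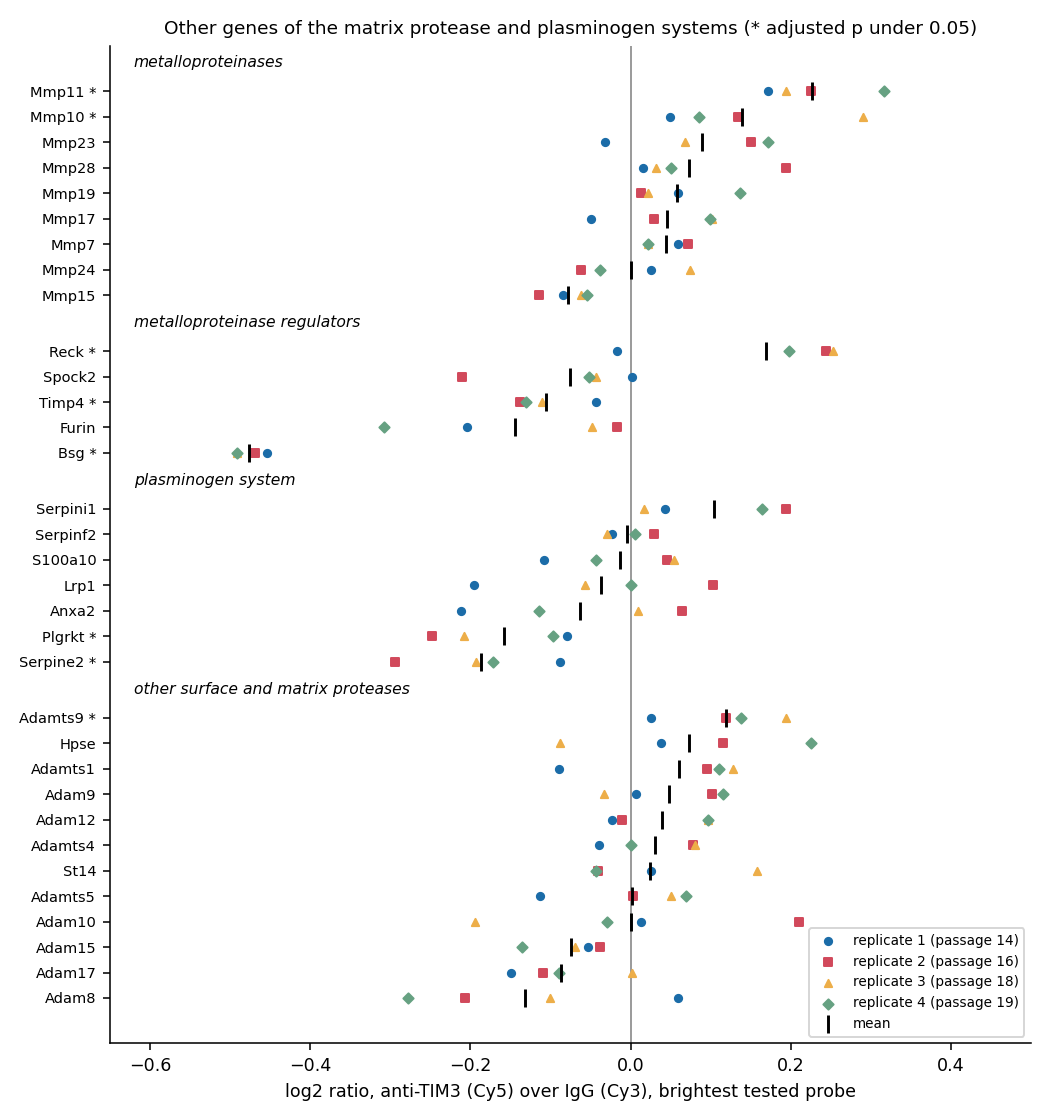
Log2 ratio of anti-TIM3 over IgG on each array (points) and its mean (bars) for the 33 tested genes of the wider list, by group. Bsg, at -0.48, lies farthest from 0, and 25 of the 33 did not pass.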

How the data were processed

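Linear spot intensity of both channels, with flags, comes from the deposited scanner files, whose headers name Agilent Feature Extraction 9.5.1.1 (version 9 in the submitters' processing notes). The deposited value table gives the log10 ratio of Cy5 over Cy3, equal within 1e-06 to the scanner files' own ratio for all 180072 values. The arrays shared 1 slide and 1 scan.

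Background was corrected by normexp (offset 50) from mean signals and median local background, followed by loess within each array (control spots at weight 0). Spots flagged as outliers were dropped, and repeat spots of a probe averaged. The log2 ratio was tested against 0 with limma 3.58.1 (R 4.3.3, lmFit and eBayes, two-sided, Benjamini-Hochberg). Levels are log2 values per channel after loess and Aquantile. The number of arrays limits the precision. The limma fit was tested on simulated log2 ratios, which did not pass through background correction or loess. Genes were named through a RefSeq table (GRCm38.p6), 22951 probes by accession, 6659 by current symbol and 3109 by synonym, and 8455 kept the file's name. Coordinates are those of the files (mm7, per the file headers), and promoters are from RefSeq.

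All probes of the 9 genes are described. Of the wider list, the 8 genes that passed with the largest absolute ratio are named, leaving out 1 gene that is not reported here. The members and lists were chosen with earlier results of these data known.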

Additional observations from a re-analysis of the deposited data

How the results depend on the processing

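In the authors' processed signals, 2871 probes were higher and 2382 lower after anti-TIM3, with 2 and 1 of the member probes. With median centring in place of loess, limma called 0 higher and 0 lower among all probes and among members (968 and 38 at p under 0.05 before adjustment), while the median over all probes became 0.15. Fitting the channels as separate samples, without the pairing within an array that the ratio uses, left 330 higher and 252 lower, and a minimum change of 1.2-fold left 43 and 13, with 0 members in either direction in both. Array weights gave 2 members lower. With 1 replicate left out, 2142 to 3515 probes were higher and 2080 to 2736 lower, as were 2 to 3 members higher and 1 to 2 lower. Timp2, Mmp14 (A_52_P304128) and Plat (A_51_P301566) lost their calls under median centring, separate channels and the 1.2-fold minimum (limma adjusted p for Timp2 0.749, 0.0783 and 0.248). The cause was not tested. No member ratio that passed changed sign in any setting, but under median centring 5 that had not passed turned positive: Mmp2 (0.003), Timp1 (0.24 and 0.30) and Plaur (0.12 and 0.30). Timp1 at A_51_P512379 was also positive in the authors' processed signals (0.03) and without background correction (0.003), and Plaur at A_52_P681310, near 0 throughout, in 5 other settings (0.002 to 0.03). The comparison of level ranges with those signals was chosen after seeing the data. With no dye exchange, dye and antibody cannot be told apart, and with 1 array per passage, nor can array and passage.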

Other observations

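The passage order seen for Timp1 was shared by other matrix genes, named here after their values were seen. Of the 100 probes with the largest range of level over the arrays among 20554 compared, 78 had their mean level lowest on replicate 1 (passage 14) and highest on replicate 3 (passage 18), and 15 the reverse. This count fixes only the lowest and the highest array, not the full order. Among all 20554 probes, 9.22% had these extremes in both channels, which is a stricter rule. Spp1, encoding osteopontin, had mean log2 levels of 10.15, 13.05, 14.21 and 13.55 on replicates 1 to 4, with ranges of 3.76 in anti-TIM3 and 4.35 in IgG samples. Col1a1, a collagen chain (A_52_P525107), had 9.96, 12.17, 13.02 and 12.49, and Fn1 (A_51_P100856, fibronectin) had 8.61, 9.57, 10.77 and 10.07.

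The reverse order was found at Oca2, a melanosome gene, with 12.56, 11.50, 10.77 and 11.29, and at Trpm1, a channel gene of the melanocyte lineage, with 12.95, 12.01, 11.13 and 11.77. Oca2 and Trpm1 were also named after their values were seen. Most melanocyte lineage genes looked at varied far less than Oca2 and Trpm1. At all probes of Pmel, Dct, Tyrp1, Mlana, Mitf and Sox10 the range was 0.12 to 0.46 log2 units in either group. The probes of Pmel, Dct, Tyrp1 and Mlana had mean log2 intensities of 16.49 to 16.81. Whether ranges are narrowed at such brightness was not tested, so steady levels are not shown for them. The ranges of Mitf were 0.43 and 0.39 in IgG and 0.25 and 0.19 in anti-TIM3 samples. Those of Sox10 were 0.46 and 0.16 in IgG and 0.26 at each probe in anti-TIM3 samples. The medians over all compared probes were 0.24 in IgG and 0.21 in anti-TIM3 samples. Tyr ranged over 0.90 in anti-TIM3 and 0.82 in IgG samples. These are levels of 1 array per passage, with no test.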
